A study of Mus musculus with 4 samples.

Results

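The cells described here are 114 osteocyte members, cells with a high level of Dmp1 taken from 24084 filtered single cells of mouse endosteal bone marrow. A cell passed the filter with 200 to 6000 detected genes and at most 5% of its unique molecular identifiers (UMIs, 1 for each captured RNA molecule) from mitochondrial genes. Members were selected on measured values of these genes: a member had at least 20 Dmp1 UMIs per 10000, a UMI of at least 2 of the 4 genes Sost, Mepe, Phex and Dkk1, no UMI of Ptprc (the pan-leukocyte antigen CD45) and fewer than 8 Adipoq UMIs per 10000. The 4 libraries, in order of age, gave 24, 49, 24 and 17 members. Those made up 0.616% of the cells without Ptprc in the 1 month library (95% Clopper-Pearson interval 0.395 to 0.915), 0.908% in the 1.5 month library (0.672 to 1.198), 0.706% in the 3 month library (0.453 to 1.05) and 0.304% in the 16 month library (0.177 to 0.486). The share at 16 months was below the other 3, and its interval overlapped those of the 1 and 3 month libraries. These intervals cover counting error only. Cells at or above the Adipoq limit could not be members but stayed in this denominator. In order of age, 3726, 4205, 3044 and 2669 of the 3897, 5398, 3398 and 5593 cells without Ptprc lay below that limit. The 16 month share is thus lowered most by cells that the rule bars. The cell filter kept 8308 of 8417, 5453 of 5745, 4180 of 4516 and 6143 of 9229 barcodes.

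Osteocytes are osteoblasts that have been enclosed in the bone matrix they made, and they reach each other and the bone surface through long cell processes in narrow canals. They are known for matrix proteins and enzymes that control mineral and phosphate (Dmp1, Mepe, Phex, Fgf23), for secreted inhibitors of Wnt signalling (Sost, Dkk1) and for signals that set osteoclast formation. Some of these genes, Dmp1 and Phex among them, are already switched on in osteoblasts that are becoming enclosed.

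All mice were male Col2:Td animals on a B6SJL/F1 background, in which Cre under a Col2 promoter removes the stop in front of a Rosa26 tdTomato reporter (Td), so that cells descended from Col2-expressing cells are red. Td+ cells were collected from 2 mice aged 1 month and from 3 mice each aged 1.5, 3 and 16 months, and the mice of an age were pooled into 1 library. The cells were released by protease digestion of metaphyseal bone fragments after the periosteum, the epiphyses and the central marrow had been removed, and were sorted for the brightest Td signal or for a Td peak. No mice with another genotype or treatment were sequenced, and with 1 library per age no difference between ages could be tested.

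A pair of other classes of cells in the same libraries served for comparison. Osteoblast-like cells (1023 cells: 221, 305, 236 and 261 in order of age) had at least 50 UMIs of Bglap (osteocalcin) per 10000, a UMI of Ifitm5, fewer than 5 Dmp1 UMIs per 10000 and the same limits on Ptprc and Adipoq. Cadm1 Cdh15 cells (470 cells: 85, 126, 82 and 177) had a UMI of Cadm1 and of Cdh15 and at least 20 Spp1 UMIs per 10000, with the same limits on Ptprc and Adipoq, and belonged to neither other class. A member could also meet the Cadm1 and Cdh15 conditions, and 11 did. Median depth was 14518, 13857, 7044 and 8952 UMIs per member in order of age, and 12031 over all members, against 16802 for osteoblast-like and 12497 for Cadm1 Cdh15 cells. The 3 younger libraries list 27999 genes each and the 16 month library lists 31054, so levels across libraries rest on the 26600 genes in all of them. Of the 114 members, 7 were among the 8% of cells with the highest doublet scores. Cell barcodes shared by 2 libraries numbered 61, 49 and 30 among the 3 younger libraries and 1 or 2 with the 16 month library, and none was a member in both.

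The rule genes describe the members and were not tested, since they chose them. Levels are given as CPM, the UMIs of a gene per 1000000 UMIs summed over the members of a library, always in the order 1, 1.5, 3 and 16 months. Dmp1, an acidic phosphoprotein of the mineralizing matrix at chr5:104202613-104214102 (GRCm38, plus strand), stood at 6122, 7983, 6533 and 5637 CPM in the members and at 88.1, 133, 75.1 and 88.4 CPM in the osteoblast-like cells. Phex, a membrane endopeptidase that restrains Fgf23 (chrX:157162075-157415312, minus strand), stood at 1202, 871, 1149.9 and 1213 CPM, and Dkk1, a Wnt inhibitor (chr19:30545863-30549665, minus strand), at 374, 436, 372 and 269 CPM. Sost, which encodes the Wnt inhibitor sclerostin (chr11:101962458-101967015, minus strand), stood at 159.5, 104, 88.9 and 177 CPM, against 0 to 1.95 CPM in osteoblast-like cells. These 4 genes varied little among the libraries beside Mepe, a matrix phosphoglycoprotein (chr5:104325329-104338611, plus strand), which stood at 16.5, 41.4, 99.99 and 298 CPM. The Mepe UMIs came from 2, 7, 6 and 6 members, and 46.2% of those at 16 months from 1 cell.

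The markers were combined unevenly. Phex had a UMI in 111 of the 114 members (97.4%) and Dkk1 in 101 (88.6%), whereas Sost had one in 37 (32.5%) and Mepe in 21 (18.4%). After every cell was thinned to 3000 UMIs, which 111 members reached, the share with Sost was 21.6% and that with Mepe 9.91%. In 3004 neutrophil-like cells, in which a UMI of these genes is taken as background and whose median depth of 12346 UMIs was close to that of the members, the shares were 3.06% for Phex, 0.666% for Dkk1, 0.1997% for Sost and 0.0999% for Mepe. Of these neutrophil-like cells 2303 came from the 1 month library and 18 from the 1.5 month library. Their pooled shares are therefore mostly those of the 1 month library. The pair Phex and Dkk1 alone admitted 61 members, Sost with both of them 26, and 4 members held all 4 genes. The name Mepe therefore applies to a minority of the cells. Fgf23, the phosphate hormone of osteocytes, had UMIs in 1 member, a 16 month cell with 15 of them. The limit on Dmp1 fell in a continuous range: members spanned 20.5 to 310.4 Dmp1 UMIs per 10000 with a median of 59.7, 15 of them lay between 20 and 25, and 15 cells that met every other condition lay between 15 and 20, the highest at 19.8. With Dmp1 at 20 or more, 93 further cells had a UMI of 1 of the 4 genes and 63 of none.

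**Figure D1:**
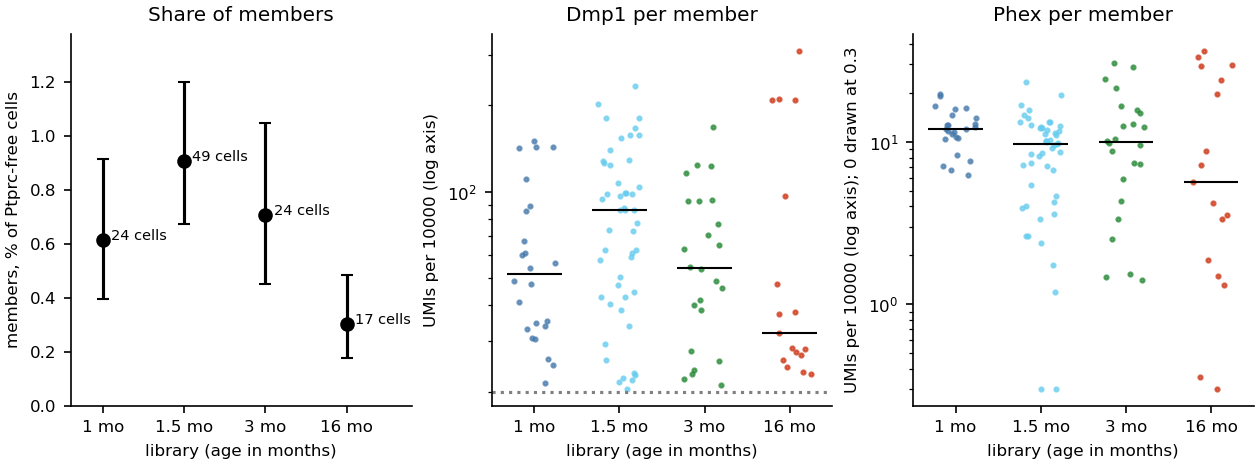
Members by library (1, 1.5, 3 and 16 months): their percentage of cells without Ptprc with the 95% Clopper-Pearson interval (left), and Dmp1 (middle) and Phex (right) UMIs per 10000 on log axes, 1 point per member, with the median as a bar, the Dmp1 limit of 20 as a dotted line and cells with 0 Phex drawn at 0.3. The median of Dmp1 was 51.4, 85.9, 54.0 and 32.2 in order of age. The share of cells without Ptprc, which include cells barred by the Adipoq limit, was lowest at 16 months with 17 cells.

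The bases in front of the Dmp1 start are shown because Dmp1 sets membership. This is the 250 bases upstream of the downstream of its 2 RefSeq starts, chr5:104202367-104202616 on the plus strand (RefSeq, GRCm38.p6), with a match to the core letters bound by RUNX factors (TGTGGT on either strand) in capitals. The 250 bases upstream of the other start, chr5:104197325-104197574, hold no match and are not shown. The same letters occur in 4614 of 32851 listed promoters of this length (14.0%), and a match is not shown to be bound here.
Dmp1: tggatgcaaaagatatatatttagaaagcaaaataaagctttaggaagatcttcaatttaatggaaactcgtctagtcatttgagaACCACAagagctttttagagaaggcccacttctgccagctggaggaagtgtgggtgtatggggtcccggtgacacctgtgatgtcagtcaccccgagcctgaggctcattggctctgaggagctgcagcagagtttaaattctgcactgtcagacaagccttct

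Genes known from osteocytes that the rule did not use set the members apart from osteoblast-like cells. Of 11 such genes tested, 9 were higher in the members and none was lower, with a median log2 fold change of 2.88, against a median of −0.17 over all 7485 genes tested. The list held 14 genes and was chosen with earlier results of these data known. Its counts therefore describe the members and are no independent support for their name. Of the list, Fgf23, Wnk4 and Lcp1 did not pass the filter on low counts. They had a UMI in 1, 9 and 10 of the 114 members. Over all genes, 5.37% were called higher and 10.2% lower (402 and 761 genes by edgeR's quasi-likelihood test on summed UMIs with the library as a block, two-sided, Benjamini-Hochberg adjusted p below 0.05). This split moved with the scaling, to 485 higher and 585 lower with RLE size factors and 794 and 292 with library totals, under which the median of all genes stood at 0.20 on the log2 scale. The 4 libraries, each from other mice of another age, are the replicates of this within-library difference, and the p-values measure its spread over them. Genes whose level follows Dmp1 had to differ, because the classes were gated on Dmp1 in opposite directions, and the osteoblast-like class alone was also gated on Bglap and Ifitm5. The 9 genes were higher under each of the 3 other scalings or tools tried (RLE size factors, library totals and DESeq2). Without the 16 month library 12 of the list could be tested, of which 10 were higher and 1 was lower.

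Pdpn, encoding podoplanin of the cell processes, stood at 756, 726, 617 and 200.3 CPM in the members and at 24.5, 73.9, 32.1 and 25.4 CPM in the osteoblast-like cells. The groups did not overlap, and the 16 month members were the lowest of the members (log2 fold change 3.50 ± 0.31 SE, n = 4 libraries, edgeR adjusted p = 1.46e-05). Irx5, an Iroquois transcription factor, stood at 734, 739.8, 739 and 412 CPM against 60.1, 76.0, 53.9 and 80.7 CPM, again without overlap (2.88 ± 0.25, edgeR adjusted p = 1.10e-05). Ackr3, the scavenger receptor for Cxcl12, was even across ages at 217, 259, 217 and 212 CPM against 6.86, 22.2, 9.11 and 33.9 CPM (3.44 ± 0.34, edgeR adjusted p = 2.94e-05). Cd44, a receptor for hyaluronan and osteopontin, stood at 316, 333, 378 and 412 CPM against 42.2, 36.6, 40.1 and 55.3 CPM (2.67 ± 0.18, edgeR adjusted p = 4.72e-06). Ptprz1, a receptor phosphatase, was higher by 3.36 on the log2 scale, Cd109, a membrane protein that binds transforming growth factor beta, by 3.08, and Fbln7, a fibulin, by 3.50. Spns2, which exports sphingosine-1-phosphate, was higher by 1.86. The smallest difference was that of Mef2c, a transcription factor of the Sost enhancer, at 1136, 1069.8, 1117 and 1047 CPM against 359, 360.3, 506 and 584 CPM (0.92 ± 0.18, edgeR adjusted p = 0.00383), and its call was lost without the 1.5 month library (0.83, edgeR adjusted p = 0.0632). Tnc and Hpgd were tested and not called, at 49.5, 157, 88.9 and 1076 CPM and 184, 198, 156 and 206 CPM in the members.

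**Figure D2:**
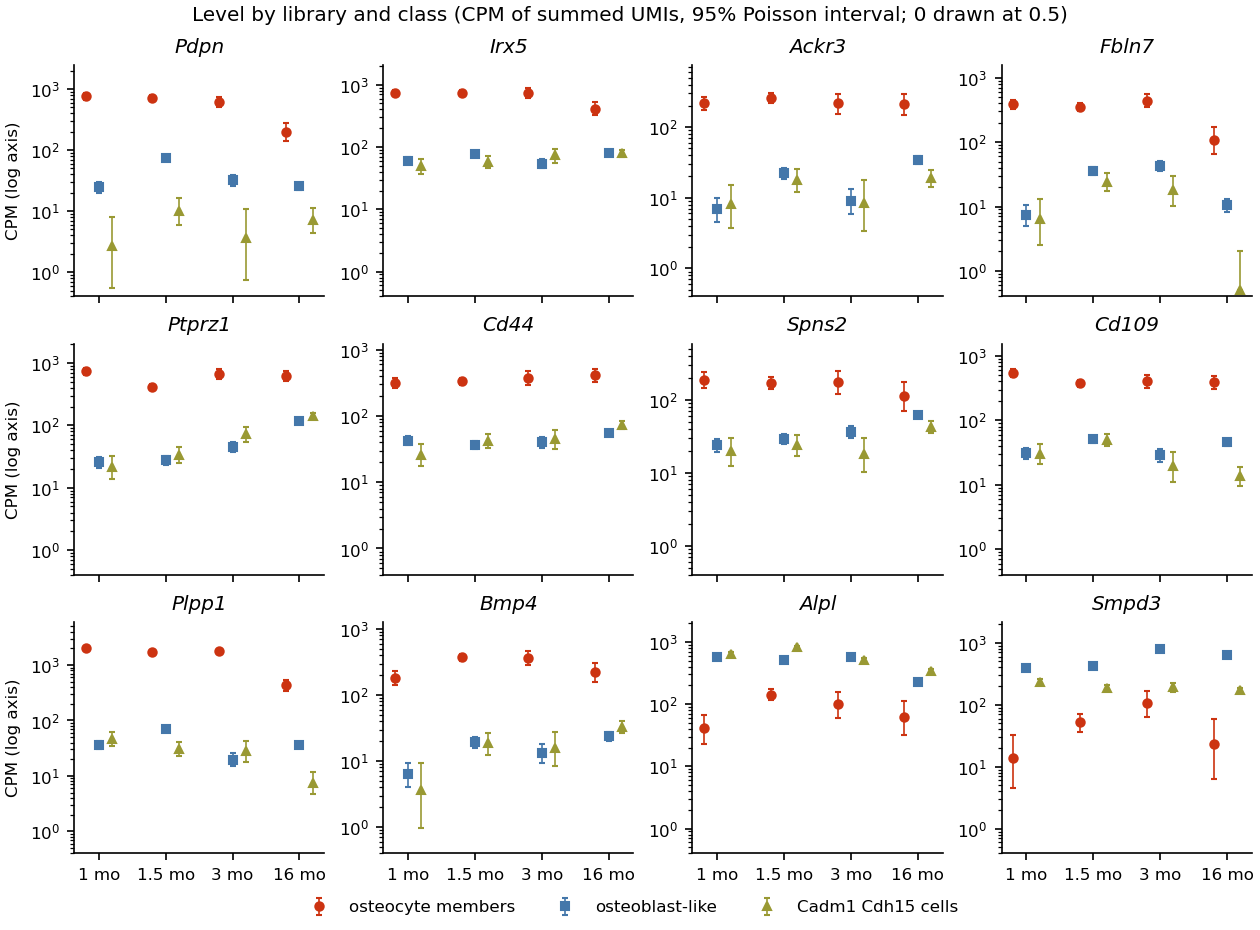
CPM (log axis, 0 drawn at 0.5) of 12 genes in the members (circles), osteoblast-like cells (squares) and Cadm1 Cdh15 cells (triangles) in each library (x axis, age in months), with 95% Poisson intervals that cover counting error only. The members lay above both other classes in each library for the first 10 genes, from Pdpn to Bmp4, and below both for Alpl and Smpd3.

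In single cells, Mef2c had a UMI in all 114 members, Ptprz1 in 89.5%, Irx5 in 87.7%, Pdpn in 79.8%, Cd109 in 78.9% and Ackr3 in 70.2%. The shares in neutrophil-like cells were 29.1% for Mef2c, 1.70% for Ptprz1, 3.16% for Irx5, 3.13% for Pdpn, 4.96% for Cd109 and 1.43% for Ackr3, at median depths of 12346 UMIs against 12031 in the members. Cd44 had a UMI in 84.2% of the members and in 78.7% of the neutrophil-like cells, which express it themselves. Osteoblast genes were present beside them, since Ifitm5 had a UMI in 74.6% of the members, against 12.9% of the neutrophil-like cells. The bases upstream of Pdpn (chr4:143299565-143299814, minus strand) and Ackr3 (chr1:90203730-90203979, plus strand) are shown as examples of the genes that were higher together, with the RUNX core letters in capitals in Ackr3. Those letters are not in the Pdpn stretch.
Pdpn: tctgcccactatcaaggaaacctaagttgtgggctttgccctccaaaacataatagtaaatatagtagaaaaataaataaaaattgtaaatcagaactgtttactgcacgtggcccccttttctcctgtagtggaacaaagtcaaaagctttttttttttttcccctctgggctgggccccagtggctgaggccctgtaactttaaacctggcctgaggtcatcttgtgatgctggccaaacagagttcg
Ackr3: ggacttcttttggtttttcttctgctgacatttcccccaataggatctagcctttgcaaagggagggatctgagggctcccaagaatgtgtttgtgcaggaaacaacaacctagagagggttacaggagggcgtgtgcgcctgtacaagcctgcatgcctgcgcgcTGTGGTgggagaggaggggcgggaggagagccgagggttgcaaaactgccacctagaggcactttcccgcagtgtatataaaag
Of the 15 genes with the largest positive fold change over osteoblast-like cells among those of at least 100 CPM in 1 class, 11 were in the promoter table, and 2 of them, Ackr3 and Car12, held the RUNX letters in these 250 bases. Over all genes with a listed promoter, 4303 of 27025 (15.9%) held them, so the 2 are not read as a trait of these genes.

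The largest difference from osteoblast-like cells among genes of at least 100 CPM was that of Plpp1, a phospholipid phosphatase, at 2035, 1752, 1778 and 429 CPM against 36.4, 69.6, 19.7 and 35.4 CPM (4.75 ± 0.40, edgeR adjusted p = 1.01e-05). The members lay above the osteoblast-like cells in all 4 libraries, and at 16 months 7 of the 17 members held its UMIs, 50.7% of them in 1 cell. Bone morphogenetic proteins were among the leading genes, with Bmp4 at 182, 371, 367 and 223 CPM against 6.33, 19.1, 13.1 and 23.7 CPM (3.85 ± 0.28) and Bmp8a at 195, 146, 189 and 206 CPM against 13.7, 17.9, 18.6 and 25.4 CPM (2.91 ± 0.21). One cell held 66.7% of the Bmp4 UMIs at 16 months. Other genes of this set were Tpbg, an inhibitor of Wnt signalling at the membrane (3.98), Adm, which encodes adrenomedullin (3.35), Car12, a membrane carbonic anhydrase (3.34), Baiap2l2, a protein that shapes membranes and actin (3.13), Fam198b, a Golgi protein (3.37), and Sema7a, a membrane semaphorin (3.00). Each was higher in 4 of 4 libraries, but at 16 months Baiap2l2 and Fam198b rest on 3 UMIs in 2 members each, and 94.4% of the Car12 UMIs were in 1 of the 2 members that held any.

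Genes of phosphate and mineral handling moved both ways. Of 13 tested, 6 were higher in the members, 4 were lower, and the median was 0.97. That median is the value of Spp1, and without the 16 month library it was 0.31, with 6 higher and 5 lower. Fam20c, the kinase that phosphorylates Dmp1 and other secreted matrix proteins, stood at 575, 543, 711 and 578 CPM against 43.5, 51.6, 47.4 and 87.6 CPM and had a UMI in 109 of the 114 members (3.05 ± 0.23, edgeR adjusted p = 4.72e-06). Ibsp, bone sialoprotein, encoded close to Dmp1 at chr5:104299171-104311469, stood at 8234, 7155, 11488 and 7549 CPM against 2081, 2495, 3936 and 3463 CPM (1.16 ± 0.16, edgeR adjusted p = 2.87e-04). The pair that sets extracellular pyrophosphate, the transporter Ank and the enzyme Enpp1, was higher by 2.73 and 2.20, as was Fgfr1, a receptor for fibroblast growth factors, by 1.33. Galnt3, which glycosylates Fgf23, was higher by 1.05 (edgeR adjusted p = 0.0267), a call lost without the 1 month (edgeR adjusted p = 0.0975), the 1.5 month (0.0887) or the 3 month (0.142) library and at a Dmp1 limit of 10 (0.0647).

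The genes of this group that were lower included 2 with which osteoblasts start mineral. Alpl, alkaline phosphatase, stood at 41.3, 142, 99.99 and 63.0 CPM in the members against 568, 518, 576 and 230.1 CPM, with no overlap (−2.85 ± 0.26, edgeR adjusted p = 1.92e-05). Smpd3, a sphingomyelinase needed for mineralization, stood at 13.8, 51.8, 106 and 22.9 CPM against 399.7, 415, 796 and 642 CPM (−3.98 ± 0.30, edgeR adjusted p = 4.72e-06). Pth1r, the receptor for parathyroid hormone, was lower (log2 fold change −1.47), and Bglap3, an osteocalcin gene whose reads may be split with its near copies Bglap and Bglap2, was lower too (−1.88). Spp1, osteopontin, was not called (0.97 ± 0.43, edgeR adjusted p = 0.166): it stood at 5577, 6894, 4205 and 66181 CPM in the members and at 7156, 3312, 1921 and 4565 CPM in the osteoblast-like cells, and the 16 month members lay far above all the others.

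**Figure D3:**
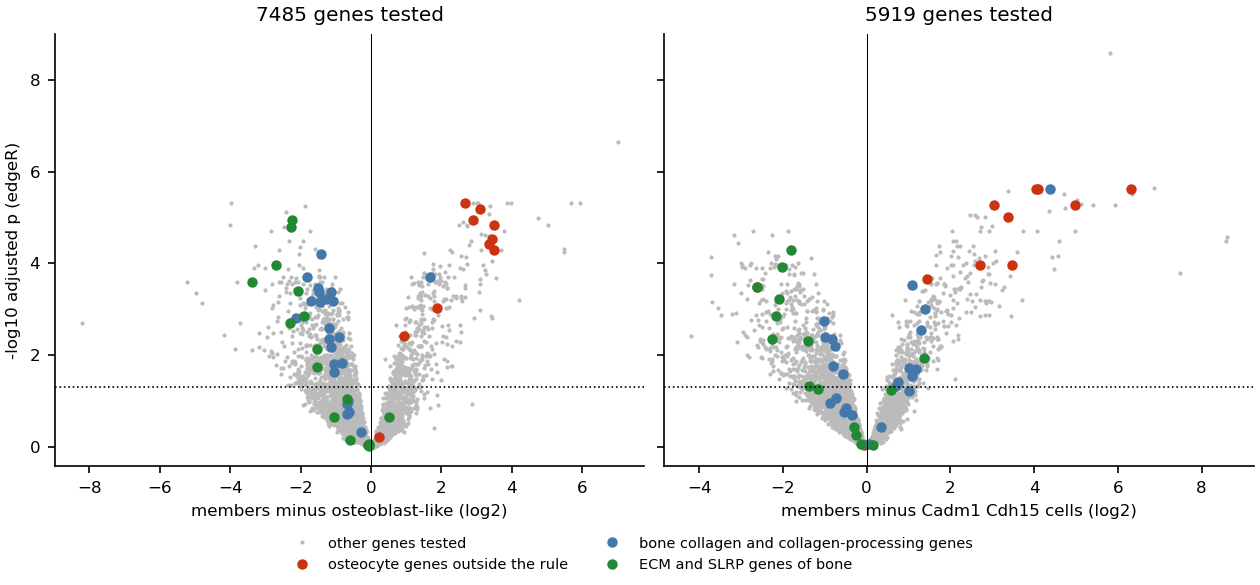
Log2 fold change of members over osteoblast-like cells (left, 7485 genes) and over Cadm1 Cdh15 cells (right, 5919 genes) against −log10 of the edgeR adjusted p, with the threshold of 0.05 as a dotted line and osteocyte (red), collagen (blue) and matrix (green) genes coloured. Over osteoblast-like cells 9 osteocyte genes lie to the right of 0 and above the line, while 17 of the 23 collagen and 9 of the 16 matrix genes lie to its left and above the line.

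Collagen and its processing were lower in the members than in osteoblast-like cells in number, but the main bone collagen was not called. Of 23 genes tested, 17 were lower and 1 was higher, with a median of −1.14. With library totals in place of TMM scaling 12 were lower and 1 was higher, and without the 16 month library again 17 and 1. Col1a1 stood at 69888, 67590.5, 48535 and 28878 CPM against 54668, 65857, 49023 and 84735 CPM (−0.66 ± 0.25, edgeR adjusted p = 0.0984): the 3 younger member groups lay within or just below the range of the osteoblast-like cells and the 16 month members far below it. Col1a2 was not called either (−0.61 ± 0.28, edgeR adjusted p = 0.173). The minor fibrillar collagens were lower, among them Col3a1 (−2.13), Col5a1 (−1.83), Col5a2 (−1.19), Col11a1 (−1.71) and Col11a2 (−1.08). So were Serpinh1, the collagen chaperone, at 1909, 2986, 2399.8 and 784 CPM against 4348, 4688, 4342 and 2232 CPM (−1.43 ± 0.15), and P4hb, a subunit of prolyl hydroxylase (−1.14). The exception was Col24a1, a minor fibrillar collagen, at 157, 175, 161 and 91.6 CPM against 32.2, 48.3, 28.1 and 31.8 CPM (1.67 ± 0.21, edgeR adjusted p = 1.97e-04).

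**Figure D4:**
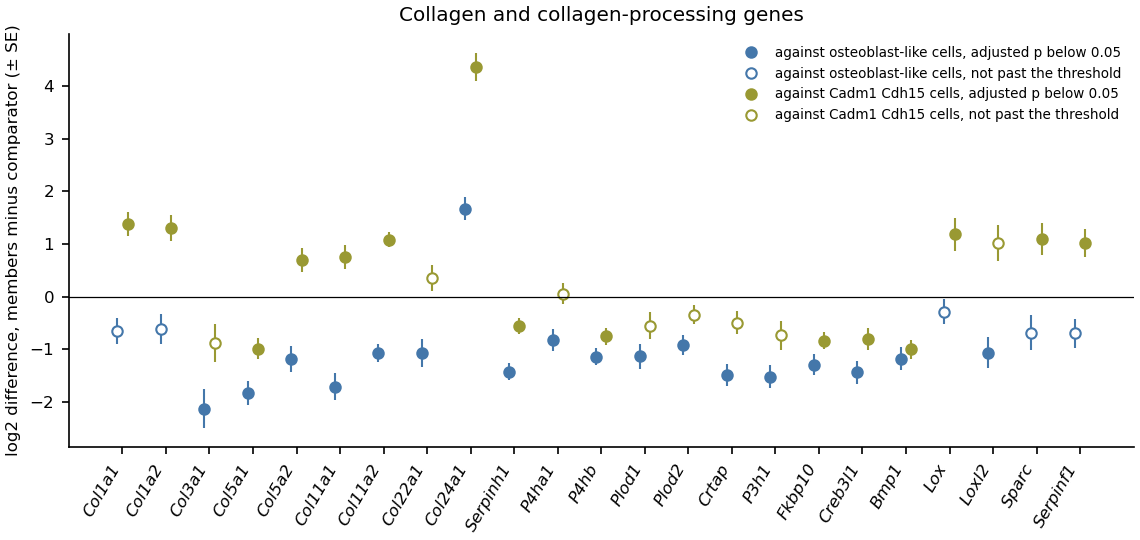
Log2 fold change with SE (y axis) of the 23 collagen and collagen-processing genes (x axis) in members against osteoblast-like cells (blue) and against Cadm1 Cdh15 cells (olive), filled where the edgeR adjusted p was below 0.05. Against osteoblast-like cells 17 were lower, and against Cadm1 Cdh15 cells 9 were higher and 6 lower, with Col24a1 above 0 in both.

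The small proteoglycans and other matrix genes of bone followed the same direction, with 9 of 16 lower, none higher and a median of −1.53. Of these 9, Tnn and Aspn passed the filter on low counts through the osteoblast-like cells, so their calls are no support for the list. Dcn, decorin, stood at 1232, 1836, 1978 and 807 CPM against 4636, 5248, 5456 and 5083 CPM (−2.26 ± 0.19, edgeR adjusted p = 1.10e-05), while Lum (−2.70), Omd (−3.39) and Fn1, fibronectin (−2.26), were lower too. Of 20 genes of the secretory pathway, 7 were lower and none was higher, with a median of −0.24 that was close to that of all genes. Kdelr2, which returns proteins to the endoplasmic reticulum, was lower (log2 fold change −1.59), and Sec61b, a part of its translocation channel, was lower as well (−1.28). Under library totals 4 of these 20 were lower and 1 was higher. Other osteoblast genes among the 15 of at least 100 CPM in 1 class with the largest negative fold changes were Tmem119 (−4.00), which promotes osteoblast differentiation, Chn1 (−3.30), a Rac-regulating protein, and Cthrc1 (−2.82), a secreted matrix protein.

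Signalling genes beyond the rule moved one by one. Of 14 Wnt pathway genes tested, 1 was higher and 3 were lower, and the latter were 5 without the 16 month library and 1 without the 1.5 month library. The one that was higher, the secreted inhibitor Wif1, stood at 1213, 1244, 1205 and 361 CPM against 142, 108, 99.8 and 85.6 CPM, had a UMI in 107 of the 114 members and did not overlap between the classes (2.73 ± 0.25, edgeR adjusted p = 1.55e-05). Of the neutrophil-like cells 15.4% had a Wif1 UMI, against 93.9% of the members. Nkd2, an intracellular inhibitor, stood at 0, 1.48, 0 and 0 CPM against 20.6, 27.9, 18.2 and 9.58 CPM and was one of the 3 called lower. It passed the filter on low counts through the osteoblast-like cells, with a single UMI in the members, so no fold is given and its call is no support for the list. Tcf7, a Wnt-responsive transcription factor, was lower (log2 fold change −1.72), as was Ctnnb1, beta-catenin (−0.94), but both calls were lost without the 1.5 month library (edgeR adjusted p = 0.0596 and 0.0802), that of Tcf7 also without the 1 month library (0.0848) and that of Ctnnb1 without the 3 month library (0.0790) or under library totals (0.129). A Dmp1 limit of 10 also ended the call of Ctnnb1 (0.0585) and a limit of 40 that of Tcf7 (0.0542).

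Among the ligands that regulate osteoclasts, 1 of 4 was higher and 1 lower. Tnfrsf11b, osteoprotegerin, the decoy receptor that blocks osteoclast formation, stood at 82.5, 163, 72.2 and 206 CPM against 10.3, 18.9, 18.2 and 10.5 CPM (2.79 ± 0.28, edgeR adjusted p = 4.01e-05). Tnfsf11, the ligand RANKL, did not pass the filter on low counts, at 2.75, 8.88, 5.56 and 40.1 CPM in the members and 4.75, 18.1, 4.01 and 5.4 CPM in the osteoblast-like cells. Csf1, the macrophage growth factor, was lower (log2 fold change −1.30, edgeR adjusted p = 0.0188), but its call was lost without the 1 month (0.0938), the 1.5 month (0.0858) or the 16 month (0.0641) library, and under library totals (0.109), DESeq2 (DESeq2 adjusted p = 0.0951) and a mitochondrial limit of 10% (−0.67, edgeR adjusted p = 0.185). Its sign turned at a Dmp1 limit of 10.

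Genes of dendrites, cytoskeleton and junctions gave 4 higher and 5 lower of 19, and 8 higher and 1 lower under library totals, so that the split of this list depends on the scaling. Pdpn and Cd44 were 2 of those higher, and Pls3, the actin-bundling protein plastin 3, was another (1.27). Cdh2, N-cadherin, was lower (log2 fold change −2.48). Of 11 mechanosensing genes 2 were higher and 1 was lower: Ptgs2, the inducible cyclooxygenase, was higher by 2.60 and the channel Trpv4 lower (log2 fold change −2.48). In the parathyroid hormone list none of 11 was higher and 2 were lower, Pth1r and Rgs2, and under library totals 3 were higher and 1 was lower. Perilacunar remodelling genes gave 3 higher (Mmp14 by 0.87, Timp2 by 0.99, Tgfbr2 by 2.13) and 2 lower (Mmp2 at −1.05, Ctsk at −1.32) of 13.

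Transcription factors of bone gave 4 higher and 5 lower of 15 (5 higher and 1 lower under library totals). Beside Irx5 and Mef2c, Irx3 was higher by 1.64 and Sox4 by 1.22, while Twist1, which restrains osteoblast differentiation, was lower (log2 fold change −1.82). Axon guidance and neural genes gave 4 higher and 2 lower of 12. Nes, the filament protein nestin, stood at 63.3, 37.0, 44.4 and 11.4 CPM against 5.54, 2.14, 2.19 and 4.59 CPM and was one of the 4 called higher. It passed the filter on low counts through the members, so no fold is given and its call is no support for the list. Hypoxia and glycolysis genes gave 2 higher (Ndrg1 by 1.76, and Adm) and 2 lower of 15, and 3 higher and none lower under library totals. Of 16 autophagy and lysosome genes 2 were higher and 2 lower, and of 10 cell cycle genes 1 was higher and 2 lower. Ribosomal protein genes were lower in 39 of 82 and higher in none, with a median of −0.39, and their summed level was 154838, 131012, 130300 and 162935 CPM in the members against 175955, 128305, 136093 and 138860 CPM. These sums carry no TMM scaling, and they were higher in the members at 1.5 and 16 months.

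Most of these short lists changed with single libraries. Without the 16 month library, dendrite genes gave 7 higher and 6 lower of 20, transcription factors 5 and 6, axon guidance genes 4 and 4, perilacunar genes 4 and 4, mechanosensing genes 2 and 2, autophagy genes 5 and 1 and parathyroid hormone genes 1 and 2. Without the 1 month, the 1.5 month or the 3 month library, dendrite genes gave 4 higher and 1 lower, 3 and 2, and 3 and 2. In the same order transcription factors gave 1 lower each time and autophagy genes 0, 1 and 0 higher. Axon guidance genes gave 1 lower without the 1.5 month or the 3 month library, and mechanosensing genes 1 higher without the 1.5 month library. Hypoxia genes gave none lower without the 1 month library and 1 without the 1.5 month or the 3 month library. Cell cycle genes gave 4 lower without the 3 month library and 1 without the 1 month or the 1.5 month library, and none of these 3 left a gene that was higher. Parathyroid hormone genes gave 1 lower without the 1 month or the 1.5 month library, and secretory genes 4 lower without the 1.5 month library.

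Signs of handling were read beside these differences. Of 16 immediate early genes 2 were higher, Atf3 (1.17) and Ier3 (1.46), and none was lower, whereas 9 were higher under library totals, and 4 were higher and 1 lower without the 16 month library. Their summed level was 13761, 13429, 13959.9 and 17862 CPM in the members and 7870.3, 10046, 9291 and 11538 CPM in the osteoblast-like cells. Median mitochondrial shares were 1.59%, 1.93%, 1.76% and 3.18% in the members. Whether handling contributes to the differences was not tested.

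Against Cadm1 Cdh15 cells the members were again higher in osteocyte genes, and on summed UMIs they were higher in the main collagens. Over the 5919 genes tested, 7.48% were called higher and 11.3% lower, and the median was −0.13. Of the 11 osteocyte genes outside the rule, 9 were higher and 1, Tnc, was lower. Among genes of at least 100 CPM in 1 class and of the same sign in each library, the largest positive fold change was that of Gchfr, which regulates synthesis of the cofactor tetrahydrobiopterin, at 344, 342, 428 and 17.2 CPM against 4.49, 1.27, 4.87 and 1.8 CPM (6.35 ± 0.43, edgeR adjusted p = 3.10e-06), with 3 UMIs among the 16 month members. Pdpn (6.31), Plpp1 (5.82), Baiap2l2 (5.41), Fam198b (5.13), Fbln7 (4.98), Car12 (4.74), Col24a1 (4.37), Ackr3 (4.09), Bmp4 (4.08), Cd109 (4.05), Lpar3 (3.72), Mustn1 (3.72), Ptprz1 (3.46) and Irx5 (3.38) completed the first 15 by this rule. Of these, Gchfr, Baiap2l2, Fam198b and Car12 passed the filter on low counts through the members, with few UMIs in the Cadm1 Cdh15 cells. Their calls and folds are therefore no support. Cd44 was higher by 3.04 and Fam20c by 1.83. The 2 comparisons share the members and the gene lists, so their agreement is not independent.

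Col1a1 stood at 23343, 26269, 12805 and 21530.3 CPM in the Cadm1 Cdh15 cells. On summed UMIs it was higher in the members in each library (1.38 ± 0.22, edgeR adjusted p = 9.88e-04), as was Col1a2 (1.31 ± 0.24, edgeR adjusted p = 0.00279). At 16 months the higher Col1a1 sum came from a part of the members. The 10 members there with the most Spp1 stood at 5433 CPM of Col1a1 when pooled, below the Cadm1 Cdh15 cells. The other 7 stood at 67728 CPM and were uneven among themselves. Of the 23 collagen genes 9 were higher and 6 lower, with a median of 0.06 that turned to −0.01 under library totals. Without the 1, 1.5, 3 or 16 month library, 4, 4, 4 and 11 were higher and 3, 4, 8 and 7 lower. Sparc, osteonectin, was called higher (1.09), but not without the 1 month (edgeR adjusted p = 0.180), the 1.5 month (0.192) or the 3 month (0.126) library or after thinning (0.0710). Mineralization genes gave 5 higher and 3 lower of 12, 5 and 5 of 13 without the 16 month library and 3 and 3 of 11 without the 1.5 month library. Of these, Ibsp (0.54) lost its call without the 1 month (0.171), the 1.5 month (0.227) or the 3 month (0.118) library and under 5 other settings (0.0592 to 0.109), and Bglap3 (1.00) without the 1.5 month library (0.0763) or after thinning (0.43, edgeR adjusted p = 0.289). Wif1 was higher by 0.76 in the Wnt list of 9 (1 higher, 2 lower), and not called without the 1.5 month (0.0789) or the 3 month (0.0581) library, after thinning (0.17, edgeR adjusted p = 0.513) or at a mitochondrial limit of 10% (0.0952) or 30% (0.122).

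The genes lower than in Cadm1 Cdh15 cells included enzymes and signals of remodelling. Mmp13, the main collagenase of bone, stood at 30.3, 453, 133 and 1099 CPM against 2022, 3680.1, 4671 and 4680.4 CPM, lowest in the 1 month and highest in the 16 month members, without overlap (−3.72 ± 0.46, edgeR adjusted p = 1.82e-04). Of 5 osteoclast-regulating ligands tested 4 were lower and Tnfrsf11b was higher (2.24), and 2 were lower without the 3 month or the 16 month library. Tnfsf11 stood at 2.75, 8.88, 5.56 and 40.1 CPM against 35.0, 99.4, 91.4 and 105 CPM. Csf1 stood at 2.75, 13.3, 22.2 and 22.9 CPM against 67.4, 98.1, 121 and 250.1 CPM. Both were called lower but passed the filter on low counts through the Cadm1 Cdh15 cells. No fold is therefore given, and their calls are no support for the list. Gas1, a growth arrest protein of the membrane (−3.71), Olfml2b, an olfactomedin-like matrix protein (−3.17), Col8a1 (−3.00), Alpl (−2.72), Pdgfrb, a platelet-derived growth factor receptor (−2.50), and Fn1 (−1.82) were lower as well, as was Tnc, which stood at 561, 1111, 1448 and 2043 CPM in the Cadm1 Cdh15 cells. Pdgfrb, at 11.5 CPM pooled over the members, also passed the filter on low counts through the Cadm1 Cdh15 cells, so its call is no support. Runx2, the transcription factor that osteoblasts require, was lower (log2 fold change −1.17). Of 9 cell cycle genes 5 were lower and none was higher, with Top2a at −2.63, which was −0.78 and not called at a Dmp1 limit of 10 (edgeR adjusted p = 0.306), and Stmn1 at −1.89.

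The remaining lists gave small splits against Cadm1 Cdh15 cells. Dendrite genes gave 4 higher and 4 lower of 19, mechanosensing genes 3 and 1 of 10, parathyroid hormone genes 0 and 2 of 10, perilacunar genes 3 and 4 of 13, transcription factors 4 and 3 of 14, and axon guidance genes 3 and 4 of 11. Hypoxia genes gave 2 higher and 3 lower of 13, secretory genes 0 and 4 of 20, immediate early genes 2 and 2 of 15, matrix genes 1 and 8 of 15, autophagy genes 4 and 2 of 16, and ribosomal protein genes 0 and 26 of 82. Leaving out 1 library at a time moved dendrite genes to 3 to 7 higher and 3 to 5 lower, mechanosensing genes to 0 to 3 higher, perilacunar genes to 1 to 5 higher, autophagy genes to 0 to 6 higher, immediate early genes to 2 to 6 higher, secretory genes to 0 to 6 lower, hypoxia genes to 1 to 3 lower, axon guidance genes to 1 to 3 higher, transcription factors to 2 to 4 higher and 3 to 5 lower and cell cycle genes to 5 to 9 lower. The most higher calls came without the 16 month library for the dendrite, perilacunar, autophagy and immediate early genes, and the most cell cycle genes that were lower without the 3 month library. Parathyroid hormone genes gave 2 higher without the 16 month library, autophagy genes none higher without any 1 of the 3 younger libraries, secretory genes none lower without the 1 month or the 1.5 month library, and hypoxia genes 1 lower without any 1 of the younger libraries. Perilacunar, axon guidance and mechanosensing genes had their fewest higher calls (1, 1 and 0) without the 1.5 month library.

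Against all other filtered cells without Ptprc, the genes that lead the members were ranked on pooled CPM among those of at least 100 CPM in the members, as a description. The rule genes Sost, Dmp1, Dkk1 and Phex were among the first 20. Those outside the rule were Gchfr (312.7 against 6.08 CPM), Baiap2l2, Pdpn (654 against 18.4 CPM), Lpar3, Ptprz1, Plpp1, Irx5, Col24a1, Fam198b, Spns2, Bmp8a, Ramp1, Pdgfa, Ackr3, Fam20c and Pcsk6. Ramp1, a partner of the calcitonin gene-related peptide receptor, stood at 1617, 1378, 1733 and 464 CPM in the members, Pdgfa, a platelet-derived growth factor, at 985, 920.3, 1099.9 and 429 CPM, and Lpar3, a lysophosphatidic acid receptor, at 151, 317, 178 and 34.3 CPM. All 3 were lowest at 16 months. Mepe, at 74.6 against 3.28 CPM, was below the limit of 100 CPM and was not ranked.

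A further gene was chosen after its values were seen. Ctsw, a protease of cytotoxic lymphocytes, stood at 99.0, 45.9, 105.5 and 166.0 CPM in the members and had a UMI in 45 of the 114 members (39.5%), against 10 of 1023 osteoblast-like cells (0.978%), 5 of 470 Cadm1 Cdh15 cells (1.06%) and 42 of 3004 neutrophil-like cells (1.398%). Pooled over the libraries it stood at 82.5 CPM in the members, below the 100 CPM that named genes had to reach, and at 0.577 CPM in the osteoblast-like cells. Ctsw (chr19:5465043-5468507, minus strand) overlaps the end of Fibp (chr19:5460615-5465051, plus strand), and how counting treated the strand is not given in the sources used here, so its UMIs are uncertain. At 16 months 6 of the 17 members held Ctsw UMIs, 58.6% of them in 1 cell.

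The members were not uniform in Spp1, which divided them into 2 ranges that were seen in the data and are described with no test. With Spp1 below 100 per 10000 UMIs there were 91 members (19, 44, 21 and 7 in order of age, median 3.77), and at or above it 23 (5, 5, 3 and 10, median 522). The values nearest the limit were 75.6 and 112, and 8 members lay between 50 and 200. Those at or above it were 10 of 17 at 16 months, against 5 of 24, 5 of 49 and 3 of 24 at the younger ages. Median depth was 12479 UMIs in the members below the limit and 9465 in those above it.

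The 2 ranges differed in named genes, though not alike in every library, and none of this has a replicate test. Irx5 stood at 806, 809.5, 795 and 882 CPM in order of age in the members below the limit and at 377, 16.8, 225 and 128.5 CPM in those above it, and Pdpn at 823, 795, 666 and 502 against 427, 16.8, 169 and 18.4 CPM. Both were lower above the limit in each library. Sost had a UMI in 35 of the 91 and in 2 of the 23, Pdpn in 84 and in 7, and Plpp1 in 82 and in 10. Phex stood lower above the limit at 1.5 months (219 against 934 CPM) and at 16 months (239 against 2828 CPM), but not at 3 months (1239.9 against 1140.1 CPM). Of the 9 osteocyte genes that were higher than in osteoblast-like cells, 9 were lower above the limit at 1.5 and at 16 months, 5 at 1 month and 6 at 3 months. Among the exceptions Fbln7 stood at 804 above against 307 CPM below the limit at 1 month, and Ptprz1 at 845 against 641 CPM at 3 months. The pooled levels of the ranges mix libraries, since 10 of the 23 and 7 of the 91 are 16 month cells.

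Genes of the Cadm1 Cdh15 class also differed by library. Cadm1 was higher above the limit in each library, at 246, 1026.5, 564 and 229 CPM against 192, 182, 277 and 167 CPM. Mmp13 was higher above it at 1.5 months (3265 against 182 CPM) and at 16 months (1744 against 30.4 CPM), and had no UMI above it at 3 months (148 CPM below). Timp3, a metalloproteinase inhibitor, was higher above it at the same 2 ages (269 against 35.7 and 2083 against 0 CPM) and not at 1 or 3 months. Tnc was higher above it at 1.5, 3 and 16 months and had no UMI there at 1 month. Cdh15 was higher above it at 1.5 months alone (135 against 17.8 CPM). Dmp1 stood at 6989, 7068, 5861 and 5129.9 CPM above the limit and at 5947, 8071, 6606 and 6478 CPM below it. Whether the name osteocyte describes both ranges alike was not tested.

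**Figure D5:**
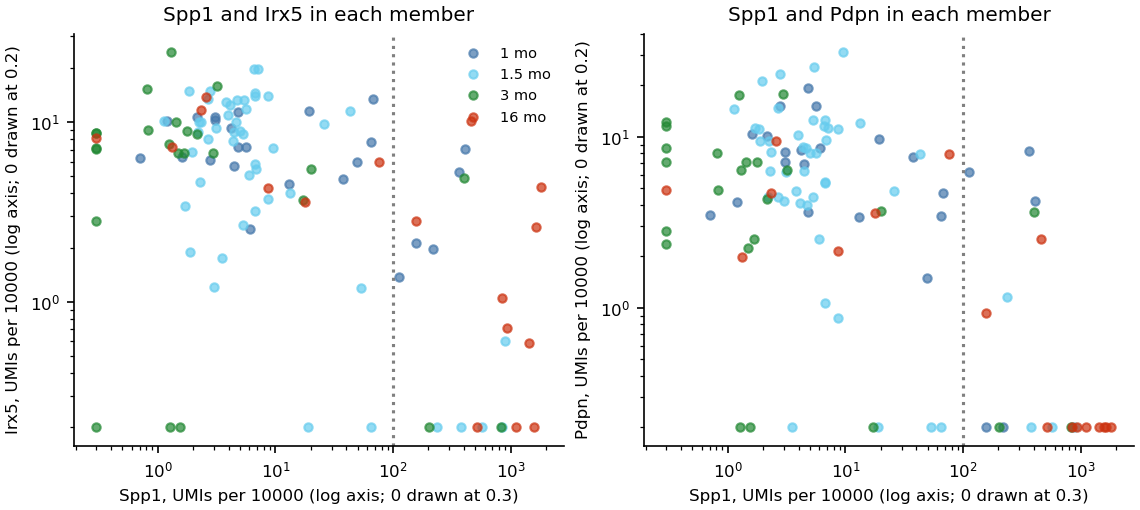
Spp1 UMIs per 10000 (x axis) against Irx5 (left) and Pdpn (right) UMIs per 10000 (y axes, all log, with 0 drawn at 0.3 or 0.2) in each of the 114 members, coloured by library, with 100 Spp1 UMIs per 10000 as a dotted line. Of the 23 members at or right of the line 10 are from 16 months, and 7 of the 23 had a Pdpn UMI, against 84 of the 91 to its left.

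Levels at 16 months differed with and without these members. Without the members above the limit, Irx5 stood at 806, 809.5, 795 and 882 CPM in order of age, Phex at 1222, 934, 1140.1 and 2828 CPM and Col1a1 at 71543, 72656, 48801 and 67728 CPM, so the 16 month value no longer lay lowest for Irx5 and was within the range of the others for Col1a1. Pdpn (823, 795, 666 and 502 CPM), Plpp1 (2015, 1918, 1904 and 1019 CPM) and Gchfr (373, 375, 468 and 45.6 CPM) were still lowest at 16 months. These values rest on 7 cells at 16 months and have no replicate. Col1a1 was uneven among these 7 cells, at 0, 29.2, 33.8, 352, 539, 945 and 1232 UMIs per 10000. Its pooled 16 month level therefore does not describe each of them.

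Over all members, 1733 genes reached 100 CPM in at least 1 library. At 16 months 216 of them (12.5%) lay at least 2-fold above the mean of the younger libraries with counting intervals apart, and 137 (7.91%) below. Of the 216, 152 (70.4%) had intervals apart in the same direction in the osteoblast-like cells, as had 388 of all 1733 genes (22.4%). Of the 137, 91 (66.4%) lay apart downwards in those cells too, against 470 of all 1733 (27.1%). Several of the leading genes had their UMIs in 1 cell, and others also differed in the osteoblast-like cells. Serpina1c (503.6 CPM at 16 months), Serpina1b (429.2 CPM), Serpina1a (378 CPM) and Gzmc (132 CPM) had all their 16 month UMIs in 1 member, and the first 3 are near copies whose reads may be split. Gm42418 stood at 267, 152, 261 and 17329 CPM in the members and 304, 194, 196 and 10246 CPM in osteoblast-like cells, Lars2 at 5.5, 13.3, 16.7 and 784 and 10.3, 6.63, 10.2 and 446 CPM, and Mia2 at 0, 0, 0 and 114 and 0, 0, 0 and 62.9 CPM. Atp5o (322, 333, 300.0 and 0 CPM) was listed at 0 at 16 months in osteoblast-like cells too. The 16 month table lists other genes than the younger ones, and age, library and gene table cannot be told apart. Among lower genes, Prss35, a serine protease-like protein, stood at 168, 246, 149.99 and 0 CPM in the members and at 66.8 CPM in the 16 month osteoblast-like cells.

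Markers of other cell types give the background of the members. Summed neutrophil and monocyte markers were 10228, 183, 1683 and 235 CPM in the members against 13976, 217, 2571 and 145 CPM in the osteoblast-like cells, and all 10 markers had a UMI in each class. Chondrocyte markers summed to 281, 3652, 556 and 744 CPM, erythroid and B lineage markers to 2742, 186, 233 and 263 CPM, and adipogenic stroma markers to 734, 536, 239 and 567 CPM. Against osteoblast-like cells 5 of 8 chondrocyte markers tested were lower, as were 4 of 5 late progenitor, 3 of 9 neutrophil and monocyte and 4 of 4 erythroid and B lineage markers, and none of these was higher. Their part in the differences was not tested. Early progenitor markers summed to 30.3, 31.1, 11.1 and 0 CPM and late progenitor markers to 44.0, 249, 33.3 and 263 CPM. Postn made up 13.8, 176, 27.8 and 263 CPM of the latter, so the others had few or no member UMIs at 3 and 16 months. The 4 late progenitor markers called lower were Aspn, Tnn, Ostn and Dkk3. They passed the filter on low counts through the osteoblast-like cells, so their calls are no support. Endothelial markers summed to at most 22.0 CPM with Kdr and Tie1 at 0, mural markers to at most 68.7 CPM with Mcam at 0, and osteoclast markers to at most 144 CPM with Ocstamp, Dcstamp and Oscar at 0. The osteoblast list summed to 182916, 200557, 175302 and 79562 CPM, and the Cadm1 osteogenic list, led by Spp1, to 5825, 7258, 4572 and 66611 CPM. The last 2 sums moved in opposite directions at 16 months. The reporter stood at 4575, 4798, 4809.6 and 6699 CPM, but the cells were sorted for it.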

How the data were processed

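Td+ endosteal marrow cells from 4 ages were sequenced as 1 droplet library each (10x Chromium). The authors deposited raw UMI counts per gene and cell, made with Cell Ranger 3.0.2 on mm10 to which the reporter had been added (submitters' processing notes, which also name Seurat 2). The gene annotation is not given in the sources used here, and no cell annotation was used. Of 27907 barcodes, 24084 passed the limits on genes and mitochondrial UMIs that the study's methods give. Genes outside the 26600 common ones held 1.28% to 1.68% of the UMIs of a library and were left out.

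Cells were classed by the gene limits given above, and the members and gene lists were chosen with earlier results of these data known. UMIs were summed per library and class (176739 to 684652 UMIs over the members of a library) and fitted with edgeR 4.0.16 in R 4.3.3 (glmQLFit and glmQLFTest, TMM, filterByExpr, library and class as terms, two-sided, Benjamini-Hochberg over all genes tested). Genes of the gates stayed in the library sizes and were not tested. The library is the pairing factor, because both classes of a pair come from the same pool of mice. CPM carry exact Poisson intervals and shares Clopper-Pearson intervals, both at 95% and for counting error only. Doublets were scored with Scrublet in scanpy 1.11.5 and the top 8% removed in an alternative. Sequences and positions are from RefSeq (GRCm38.p6) and a GRCm38 gene annotation.

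Named genes were those of the lists, the 15 with the largest fold change in each direction per comparison (adjusted p below 0.05, the same sign in each library, at least 100 CPM in 1 class), the 20 that lead the members, the 8 with the largest and the 8 with the smallest 16 month ratio (1 CPM added), and the rule genes. Ctsw and the division by Spp1 were chosen after their values were seen. Alternatives were DESeq2 1.42.0, other scalings, no filter on low counts, no library term, each library left out, other limits for the classes, thinning to 3000 UMIs, other mitochondrial limits and doublet removal. The scripts were tested on simulated data.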

Additional observations from a re-analysis of the deposited data

Results flagged for a closer look

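The named genes below differed one way in each of the 3 younger libraries and the other way at 16 months. Counting intervals of the 2 classes lay apart in all 4. No share over all genes was computed, so how many met this is not read as a result. These intervals are narrow for abundant genes, and Col1a2 met the rule at 1.5 months with a log2 ratio of 0.04. The difference was not tested, since 16 months has 1 library, and values are log2 ratios of CPM in the order 1, 1.5, 3 and 16 months. Against osteoblast-like cells, Sparc stood at 0.42, 0.16, 0.12 and −2.13, Col1a2 at 0.49, 0.04, 0.14 and −1.70, and Bgn, the proteoglycan biglycan, at 0.68, 0.51, 0.38 and −0.33. All 3 are matrix genes of osteoblasts. Postn, periostin, went the other way at −3.70, −0.44, −2.05 and 1.70.

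Against Cadm1 Cdh15 cells, Sparc stood at 1.49, 1.37, 1.62 and −0.47, Bglap at 1.55, 1.36, 0.69 and −0.11, and the lysosomal gene Laptm4a at 0.47, 0.33, 0.56 and −0.39. The summed osteoblast list of the members was also lowest at 16 months (79562 CPM), where 10 of the 17 members had at least 100 Spp1 UMIs per 10000. The part of these members in the 16 month values was not tested.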

How the results depend on the processing

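The 2 classes of each comparison are paired within a library. Without the library as a block, the genes called fell to 195 higher and 183 lower against osteoblast-like cells and to 215 and 188 against Cadm1 Cdh15 cells, and 26 of 105 called named results were no longer called. DESeq2 called 418 and 379 lower. Leaving out 1 library gave 220 to 562 higher and 326 to 871 lower against osteoblast-like cells, and 228 to 631 and 303 to 790 against Cadm1 Cdh15 cells; the lowest counts came without the 1.5 month library, or, for 326, the 1 month library. Thinning to 3000 UMIs left 73 members, 142 higher calls against osteoblast-like cells and 63 higher and 214 lower against Cadm1 Cdh15 cells, and a Dmp1 limit of 10 left 402 lower there. Library totals (794 higher, 292 lower) and Spp1 below 100 (634 higher) were chosen after seeing the data, as were a 30% mitochondrial limit and members without Cdh15. Spp1 turned to −0.52 after thinning and −2.55 below the Spp1 limit, which selects on it, and Csf1 to 0.19 at a Dmp1 limit of 10 (edgeR adjusted p = 0.743). Of the called named results 78 kept direction and call in each alternative that gave a value.

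With at least 3 markers there were 38 members, too few for a fit, and shares of 0.257%, 0.278%, 0.206% and 0.107% in order of age. A Dmp1 limit of 40 gave 0.385% at 1 month and 0.107% at 16 months, a limit of 10 gave 1.204% at 1.5 months and 0.679% at 16 months, thinning gave 0.289% at 1 month and 0.498% at 1.5 months, and Spp1 below 100 gave 0.125% at 16 months. The counts of genes apart at 16 months fell to 64 higher and 27 lower after thinning, and to 90 lower without members holding Cdh15. They could not be computed with a Dmp1 limit of 40, 3 markers or Spp1 below 100, which left under 10 members at 16 months. The 16 month values rest on the fewest cells, 17, while the 3 month members had the lower median depth (7044 against 8952 UMIs).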
